A study of Mus musculus with 4 samples.

Results

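The CXC chemokine ligands are small secreted proteins that attract white blood cells, and 10 of their genes were followed here in cultured primary mouse hepatocytes, out of 37074 gene names on the array. They were chosen by name: the array's own annotation had to give a non-control probe the name Cxcl1, Cxcl2, Cxcl3, Cxcl5, Cxcl9, Cxcl10, Cxcl11, Cxcl12, Cxcl14 or Cxcl16. These names cover 15 probes, of which 14 were well above background on at least 1 array by the scanner's flag and 11 on all 4 arrays. All 10 genes had such a probe on at least 1 array, and 8 had one on all 4, the exceptions being Cxcl2 and Cxcl5.

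The cells came from C57BL/6 mice, male according to the methods, and were harvested 24 h after seeding. Drp1LiKO hepatocytes lack dynamin-related protein 1 (Drp1, the product of Dnm1l), which divides mitochondria, because a floxed allele is recombined by an Alb-Cre transgene, active in hepatocytes. Control hepatocytes came from littermates with the floxed allele and no Cre, although their labels read wild-type, and 1 title reads Drp1flox. Each genotype was cultured without palmitate or with 200 μM of it; palmitate is a saturated fatty acid. Age, the number of mice behind an array and how long palmitate was on the cells for these arrays are not given in the sources used here.

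With 1 array per group, the spread of animals or cultures is not known, and no p-value was computed. Palmitate and untreated cells were run on separate slides, so that palmitate and slide cannot be told apart, whereas the genotypes were compared within a slide. By its label, the untreated control array shares its raw data with another series. Between 44.7% and 51.1% of probes were well above background on an array. The targeted gene, Dnm1l, differed between Drp1LiKO and control by −1.35 on the log2 scale untreated and by −1.42 with palmitate on the probe that represents it. A second, dim Dnm1l probe gave −0.35 untreated and was not well above background on either palmitate array.

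A chemokine works by forming a gradient that cells with the matching receptor follow. Ligands with the ELR motif, here Cxcl1, Cxcl2, Cxcl3 and Cxcl5, act on Cxcr2 and draw neutrophils, and their genes are classical targets of NF-kB downstream of interleukin-1 and tumour necrosis factor. Cxcl9, Cxcl10 and Cxcl11 lack that motif, are induced by interferons and act on Cxcr3, which activated T cells and natural killer cells carry. Cxcl12 is a largely constitutive ligand of Cxcr4, Cxcl14 an epithelial ligand, and Cxcl16 a membrane-bound ligand of Cxcr6 that also binds oxidised lipoprotein. In the liver, hepatocytes, macrophages, endothelial and stellate cells can all make chemokines.

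Levels are log2 intensities minus the 75th percentile of the array, so that 0 is that percentile, and a level of one probe says nothing about the level of another. The scanner's own error was 0.144 on this scale for a bright probe and 0.204 for a difference of such values. It covers the spot and not the culture. A gene was called when its arrays differed at least 2-fold, which is 1 on the log2 scale, provided that at least 1 of both signals passed the flag. Below background means that the flag was not met.

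Palmitate against untreated cells, all 4 neutrophil-attracting ligands were called higher within Drp1LiKO, and 3 of them, all but Cxcl2, within control. Cxcl9, Cxcl10 and Cxcl14 were higher in Drp1LiKO than in control with and without palmitate. Cxcl10 also rose with palmitate in control cells, Cxcl3 was higher in Drp1LiKO than in control with palmitate, and Cxcl5 was called in all 4 comparisons. Cxcl11, Cxcl12 and Cxcl16 were called in none.

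**Figure D1:**
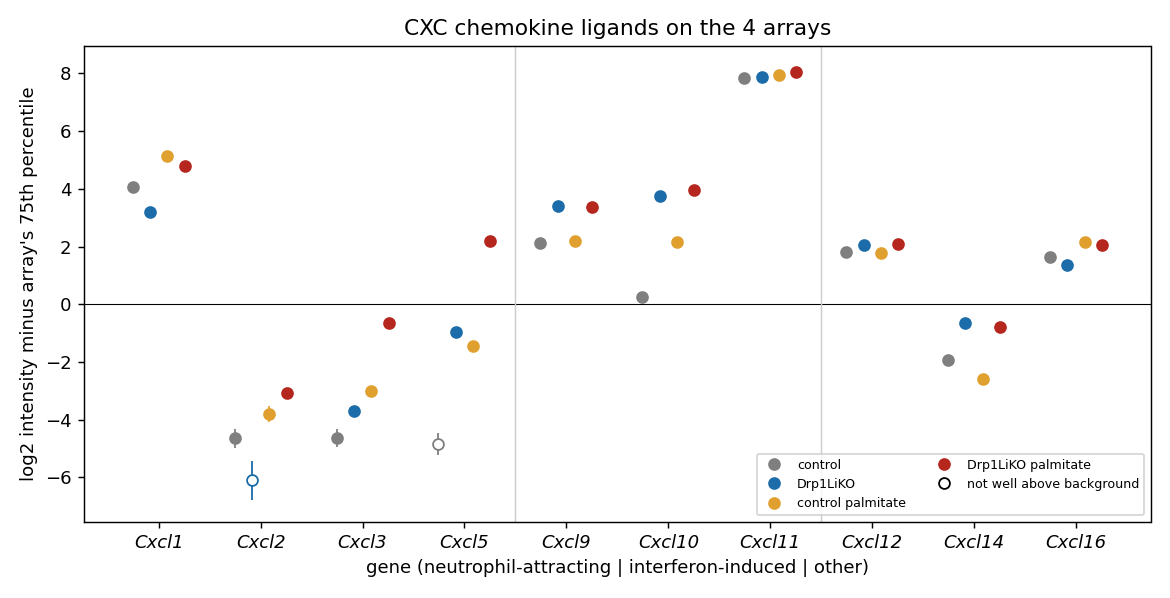
Level of the 10 ligands on the 4 arrays, as log2 intensity minus the array's 75th percentile, with 1 point per array for the probe that represents the gene and bars for the scanner's error, which are smaller than the point for bright probes. Hollow points are not well above background: Cxcl5 in untreated control and Cxcl2 in untreated Drp1LiKO. Cxcl5 spans −4.85 to 2.19 and Cxcl11 only 7.85 to 8.06.

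Cxcl5, which in mice is a neutrophil attractant made by epithelial and stromal cells, read −4.85 on the untreated control array, below the flag, −0.96 in untreated Drp1LiKO, −1.44 in control with palmitate and 2.19 in Drp1LiKO with palmitate. Both the genotype and palmitate went with a higher level, and the array with both was the highest of the 4. Untreated Drp1LiKO cells were at least 13.6-fold higher than control cells, and with palmitate the difference was 3.64 on the log2 scale, or 12.4-fold. With palmitate Cxcl5 was higher by a factor of at least 9.80 in control cells and by 3.16, or 8.92-fold, in Drp1LiKO. These bounds hold for the main processing: normexp, which adds an offset to dim signals, gave log2 differences of 1.92 for the genotype untreated and 1.59 for palmitate in control. Of 17853 genes measured on both Drp1LiKO arrays, Cxcl5 had the 8th highest difference with palmitate, and of 16784 measured on both palmitate arrays it had the 9th highest genotype difference.

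Cxcl3, a close relative of Cxcl2, read −4.63 in control, −3.71 in Drp1LiKO, −3.02 in control with palmitate and −0.65 in Drp1LiKO with palmitate. It kept the order of Cxcl5 for the lowest and the highest array, over a narrower range. It rose with palmitate by 1.61 (3.05-fold) in control and by 3.06 (8.34-fold) in Drp1LiKO, which is the 27th highest difference of 16829 genes and the 10th highest of 17853. The genotypes differed by 0.92 untreated, just under the threshold, and by 2.37 (5.17-fold) with palmitate. Of the 24 spots around the Cxcl3 spot, 3 were lit on the untreated control array alone, against a mean of 0.288 over all spots. The Drp1LiKO arrays had 0 and 1 such spots, and the part of these neighbours was not tested. Under normexp background correction the rise in control was 0.66, which ends its call, and that in Drp1LiKO 1.99.

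Cxcl2, known as MIP-2 and made by activated macrophages among other cells, lay near background. It read −4.64 in control, −6.10 in Drp1LiKO, below the flag, −3.81 in control with palmitate and −3.07 in Drp1LiKO with palmitate. Both palmitate arrays were above both untreated arrays. In Drp1LiKO cells its palmitate level was at least 3.66-fold the untreated one, whereas in control cells the difference of 0.84 was not called. That bound holds for the main processing: normexp gave log2 differences of 1.01 in Drp1LiKO and 0.39 in control. Between the genotypes untreated Cxcl2 differed by −1.46, which the call counts as lower in Drp1LiKO. The bound against the floor of that array is only 1.23-fold, however, and normexp gave −0.42. With palmitate the genotype difference was 0.74, not called.

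Cxcl1, known as KC and secreted by hepatocytes in response to cytokines, was the neutrophil attractant whose probe was far above background on every array. It read 4.07 in control, 3.19 in Drp1LiKO, 5.15 in control with palmitate and 4.79 in Drp1LiKO with palmitate. Each palmitate array lay above both untreated arrays, and in each pair the Drp1LiKO array was the lower one. Cxcl1 rose with palmitate by 1.08 (2.12-fold) in control and 1.60 (3.04-fold) in Drp1LiKO. The genotype differences, −0.88 untreated and −0.36 with palmitate, were not called, so Cxcl1 did not share the higher genotype value of Cxcl5 and Cxcl3. The Cxcl1 spot had 3 neighbours lit on the control palmitate array alone, against a mean of 0.129, and their part was not tested.

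These 4 genes lie in 1 cluster on chromosome 5. By the probes' positions on mm9 the order is Cxcl5, Ppbp, Pf4, Cxcl3, Cxcl15, Cxcl1 and Cxcl2, with the Cxcl5 probe at 91190490 to 91190549 and the Cxcl2 probe at 91334534 to 91334593. The other ligands of the cluster differed among themselves. Ppbp and Cxcl15, the latter a lung chemokine, were below background on every array. Pf4, platelet factor 4, read −4.33, −1.85, −3.31 and −0.59 in the order control, Drp1LiKO, control with palmitate and Drp1LiKO with palmitate. Pf4 was thus higher in Drp1LiKO by 2.48 and 2.72 and rose with palmitate by 1.02 and 1.26, so that all its differences had the sign of those of Cxcl5.

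Promoter sequence is shown for the cluster members that rose together with palmitate in Drp1LiKO, and for Cxcl10, whose Drp1LiKO arrays both lay above both control arrays. RefSeq windows on GRCm38.p6, a later build than the probes' mm9, were given for 7 of the 10 genes, Cxcl5, Cxcl11 and Cxcl16 being the others. In the 250 bases before the gene start, 3 patterns were searched on both strands. The NF-kB-like one is GGG and TTCC parted by 3 bases of any kind, the one like an interferon-stimulated response element (ISRE) is TTTC and TTTC parted by 2 bases of any kind, and the one like a gamma-activated site (GAS) is TTCNNNGAA. Capitals mark every match below, overlapping ones joined, and all 4 windows lie on chromosome 5, the first 3 on the plus strand (chr5:90891145-90891244 for Cxcl1, chr5:90903789-90903898 for Cxcl2 and chr5:90786011-90786100 for Cxcl3) and Cxcl10 on the minus strand (chr5:92348890-92349119), each running 5′ to 3′ and ending at the base before the gene start.
Cxcl1: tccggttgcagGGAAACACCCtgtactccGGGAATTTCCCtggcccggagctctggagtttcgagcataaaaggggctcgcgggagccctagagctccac
Cxcl2: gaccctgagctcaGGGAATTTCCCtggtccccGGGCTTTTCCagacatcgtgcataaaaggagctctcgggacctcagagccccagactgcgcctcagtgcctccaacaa
Cxcl3: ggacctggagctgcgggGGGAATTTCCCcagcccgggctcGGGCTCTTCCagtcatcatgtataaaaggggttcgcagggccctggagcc
Cxcl10: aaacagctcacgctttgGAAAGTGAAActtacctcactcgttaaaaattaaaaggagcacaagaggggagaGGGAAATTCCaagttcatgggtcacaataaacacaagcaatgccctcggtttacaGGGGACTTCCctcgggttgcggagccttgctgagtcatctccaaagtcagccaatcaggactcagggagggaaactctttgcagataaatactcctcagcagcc

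The longest word common to the last 100 bases of Cxcl1, Cxcl2 and Cxcl3 was GGGAATTTCCC, of 11 bases, which matches the NF-kB-like pattern on both strands. It was looked for after these sequences were at hand. It begins 71 bases before the start of Cxcl1, 97 before Cxcl2 and 73 before Cxcl3, and 0.0426% of 32851 promoters of that length hold it. The looser NF-kB-like pattern was found in 4 of the 7 windows, those of Cxcl1, Cxcl2, Cxcl3 and Cxcl10, against 4.65% of all promoters. The ISRE-like pattern was found in Cxcl10 and Cxcl14, against 2.98% of promoters, and the GAS-like one in Cxcl14, against 7.02%. The windows of Cxcl9 and Cxcl12 held none of these letters, which says nothing about what binds there. A match describes letters and is no measured binding.

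Cxcl10, also called IP-10, is induced by type I and type II interferons and by NF-kB. Its main probe read 0.24 in control, 3.76 in Drp1LiKO, 2.15 in control with palmitate and 3.96 in Drp1LiKO with palmitate. Both Drp1LiKO arrays lay close together and above both control arrays, of which the palmitate one was the higher. Untreated Drp1LiKO cells were 3.52 higher, or 11.5-fold, the 23rd highest difference of 17652 genes. With palmitate the genotypes differed by 1.81, with the 151st highest difference of 16784 genes. Cxcl10 rose with palmitate by 1.91 (3.77-fold) in control, the 16th highest difference of 16829 genes, while in Drp1LiKO the difference was 0.20 and not called. A second, dim probe was well above background on both Drp1LiKO arrays only and gave bounds of at least 1.74-fold and 1.28-fold for the genotype.

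Cxcl9, known as MIG and induced chiefly by interferon gamma, read 2.13 in control, 3.40 in Drp1LiKO, 2.20 in control with palmitate and 3.37 in Drp1LiKO with palmitate. The arrays paired by genotype, with each palmitate array near its untreated one. Drp1LiKO cells were 1.27 (2.40-fold) and 1.17 (2.24-fold) higher, whereas the palmitate differences of 0.07 and −0.03 were within the scanner's error of 0.204.

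Cxcl11, or I-TAC, read 7.85, 7.89, 7.96 and 8.06 in the same order of arrays, and its second probe 1.86, 1.70, 2.10 and 2.01. No difference on either probe reached the threshold, the largest in size being 0.31 for palmitate in Drp1LiKO on the second probe. The probes gave opposite signs for the genotype, at 0.04 and −0.16 untreated, and the sign of the first turned under median scaling. Background knowledge holds that C57BL/6 mice make no intact Cxcl11 protein, and the array measures RNA.

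Of the other ligands, only Cxcl14 was called. It read −1.94 in control, −0.64 in Drp1LiKO, −2.59 in control with palmitate and −0.77 in Drp1LiKO with palmitate. The Drp1LiKO arrays were above both control arrays, by 1.30 (2.46-fold) untreated and 1.82 (3.53-fold) with palmitate, and palmitate gave −0.65 and −0.13. Its second probe was not well above background on any array. Cxcl16 read 1.63, 1.38, 2.14 and 2.06 in the same order, with palmitate differences of 0.51 and 0.68 (0.14 and 0.75 on a second probe). Cxcl12 read 1.83, 2.06, 1.78 and 2.10, and its differences lay between −0.05 and 0.32, with 0.65 for the genotype in each condition on a second probe that is named for another transcript.

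**Figure D2:**
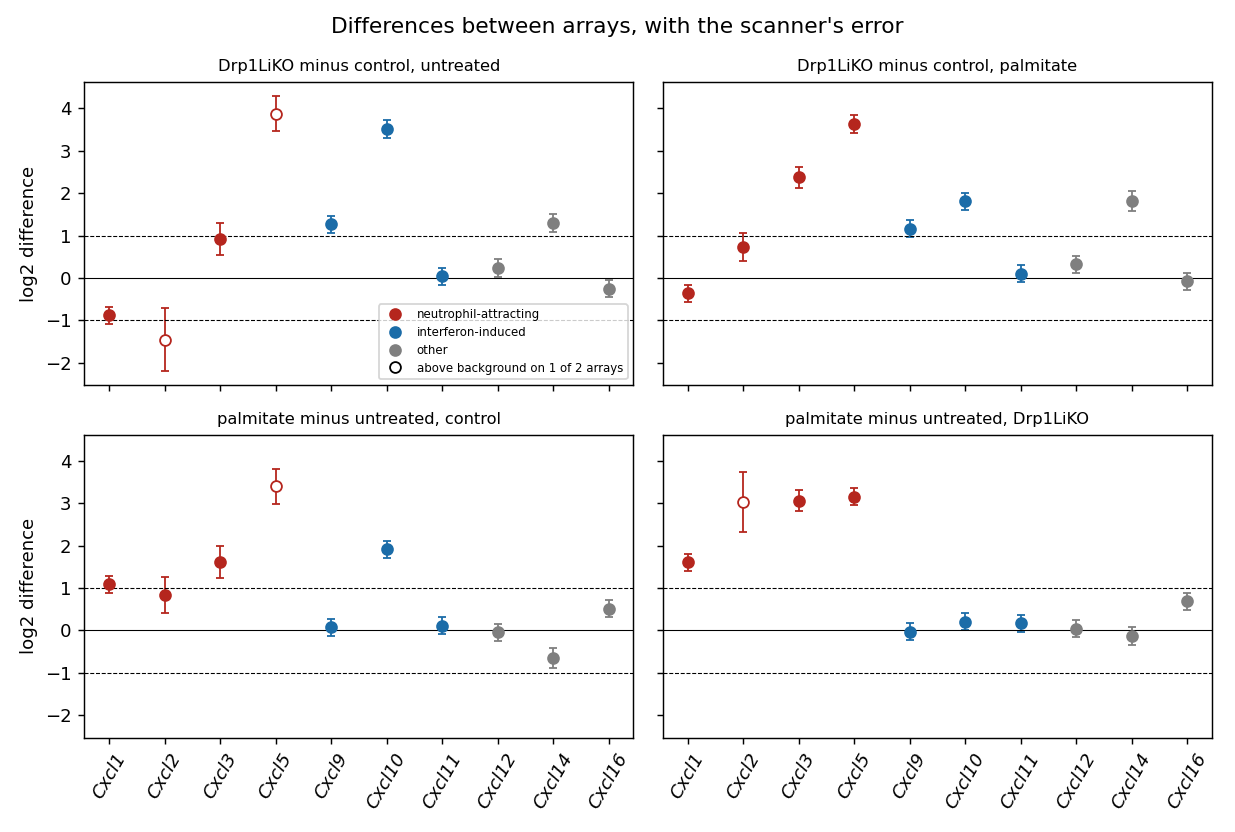
Log2 differences of the 10 ligands in the 4 comparisons, coloured by class, with bars for the scanner's error and dashed lines at 2-fold; hollow points were well above background on 1 of the 2 arrays only. Palmitate panels show all 4 neutrophil attractants above 0, and genotype panels show Cxcl5, Cxcl9, Cxcl10 and Cxcl14 above the line.

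Counted over the 10 ligands, 4 were called higher in untreated Drp1LiKO cells (Cxcl5, Cxcl9, Cxcl10 and Cxcl14), where 8.84% of 19875 genes were, and 1 was called lower (Cxcl2), where 5.58% were. With palmitate 5 were higher in Drp1LiKO than in control, the same 4 and Cxcl3, against 7.26% of 18890 genes, and 0 were lower, against 4.26%. Within control cells 4 were higher with palmitate than untreated (Cxcl1, Cxcl3, Cxcl5 and Cxcl10), against 2.83% of 18772 genes, and 0 lower, against 2.87%. In Drp1LiKO 4 were higher with palmitate, the neutrophil attractants, against 3.93% of 19747 genes, and 0 lower, against 3.11%. With both arrays above background 3 of 8 ligands were higher for the genotype untreated and 5 of 10 with palmitate, against 4.46% and 3.09% of such genes. For palmitate 3 of 9 were higher in control and 3 of 9 in Drp1LiKO, against 0.85% and 1.75%. The share of the ligands called higher was above that of all genes in each comparison by either count. The ligands were chosen with earlier results of these data known, so these shares only describe the 10 genes.

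The classes differed in their medians. The neutrophil-attracting ligands had median differences of 0.02 and 1.55 for the genotype untreated and with palmitate, and of 1.35 and 3.05 for palmitate in control and in Drp1LiKO. The interferon-induced ligands had 1.27 and 1.17 for the genotype and 0.11 and 0.17 for palmitate. Over all genes tested the 4 medians lay between −0.03 and 0.01. The neutrophil-attracting median thus exceeded the interferon-induced one by 1.24 and 2.88 for palmitate, by 0.39 for the genotype with palmitate, and was 1.25 below it for the genotype untreated. With 4 and 3 genes, a median rests on 1 or 2 of them. Under normexp the neutrophil-attracting medians fell to 0.86 for palmitate in control and 1.78 for Drp1LiKO, and the excess of 0.39 turned to −0.28. The neutrophil-attracting median of 0.02 also turned sign there and under 3 other scalings, down to −0.16.

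The palmitate response was set between the genotypes as a difference of differences, which has no test here. It was larger in Drp1LiKO for Cxcl2 by 2.20, for Cxcl3 by 1.45 and for Cxcl1 by 0.52, and smaller for Cxcl10 by −1.71. The Cxcl2 value starts from an untreated Drp1LiKO level below background and fell to 0.61 under normexp. For Cxcl5 it was −0.25, and this sign turned to 1.28 under normexp background correction. Its untreated control value was below background. The other 5 genes lay between −0.10 and 0.52.

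**Figure D3:**
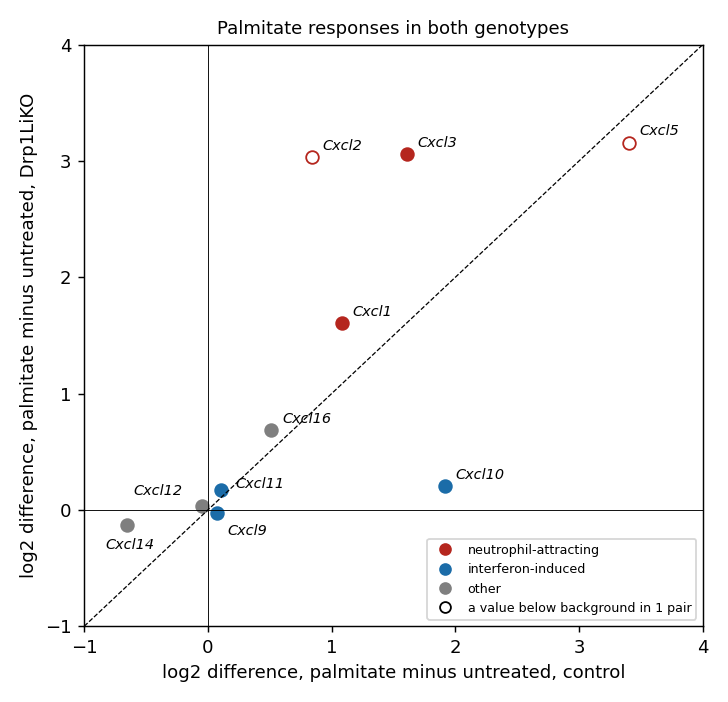
Palmitate response of each ligand in control (x axis) against Drp1LiKO (y axis), both as log2 differences, with the dashed line where they are equal. Cxcl3 and Cxcl2 lie above the line, Cxcl10 (1.91 in control, 0.20 in Drp1LiKO) below it, and hollow points hold a value below background.

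The receptors of these ligands were near or below background. Cxcr2, the neutrophil receptor, Cxcr3, Cxcr5 and Gpr35 were below background on every array. Cxcr1 was measured on the untreated control array alone, Cxcr4 in Drp1LiKO with palmitate alone and Cxcr6 in untreated Drp1LiKO alone. The scavenging receptors were measured on 3 arrays each. Ackr1 was higher in Drp1LiKO with palmitate by 1.36 and Ackr3 untreated by 1.23.

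Among 12 cytokines known to induce these ligands, 9 were measured, 4 of them on all arrays. Called higher were 2 and 5 for the genotype untreated and with palmitate, and 2 and 4 for palmitate in control and in Drp1LiKO, with 0 lower in each. With both arrays above background the numbers higher were 0, 2, 0 and 2, against 4.46%, 3.09%, 0.85% and 1.75% of such genes. Of all genes tested 8.84%, 7.26%, 2.83% and 3.93% were higher in these comparisons, and 5.58%, 4.26%, 2.87% and 3.11% lower. Il1b, an inducer of Cxcl1 to Cxcl5, was at 0.05 in Drp1LiKO with palmitate against −1.91 in control with palmitate, and Il6 at −0.07 against −3.37. Tnf differed by at most 0.55 in size. Ifng, the main inducer of Cxcl9, Il17a and Lta were below background on every array. Ifnb1 passed the flag on the Drp1LiKO palmitate array alone.

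Of the NF-kB target and feedback genes, 17 of 17 were measured on all arrays. Of all genes above background on both arrays, 4.46% were higher and 3.34% lower for the genotype untreated, and 3.09% higher with palmitate. For palmitate 0.85% were higher in control and 1.75% in Drp1LiKO. For the genotype 0 were higher and 1 lower untreated (Icam1, an adhesion molecule, −1.38), and 1 higher with palmitate (Traf1, a signalling adaptor, at −0.59 against −1.69). With palmitate 2 rose in control, Nfkbiz (1.25), which encodes a nuclear co-factor of NF-kB, and Zc3h12a (1.08), an RNase that degrades cytokine messages. In Drp1LiKO 3 rose, Traf1 (2.71), Nfkbiz (1.38) and Zc3h12a (1.07). The list medians were −0.22, −0.07, 0.18 and 0.47 in the order of the comparisons above.

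Of the interferon signalling genes, 16 of 16 were measured on all arrays. In Drp1LiKO 8 were higher untreated, among them Isg15 (2.84), Usp18 (2.35), Irf7 (1.83) and Stat2 (1.45), and 5 with palmitate, among them Isg15 (2.29), Usp18 (1.84), Irf7 (1.49) and Irf8 (1.27), with 0 called lower in either. With palmitate 1 rose in control, Isg15 (1.32), and 0 in Drp1LiKO. Of all genes above background on both arrays, 4.46% and 3.09% were higher for the genotype, and 0.85% and 1.75% for palmitate. Irf1, Ifngr1 and Ifngr2, which carry the interferon gamma signal, differed by at most 0.30 in size in any comparison. List medians were 0.62 and 0.51 for the genotype and 0.20 and 0.10 for palmitate.

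Of 8 genes that cut or hold chemokines, 7 were measured. Mmp9, a protease that trims ELR chemokines, rose with palmitate in Drp1LiKO by 1.99 and was 1.21 higher there than in control with palmitate. Dpp4, which inactivates Cxcl10, differed by −0.32 and −0.61 between the genotypes, and neither was called. The syndecan Sdc4 read 3.03 in control and 2.04 in Drp1LiKO untreated, just under 2-fold.

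**Figure D4:**
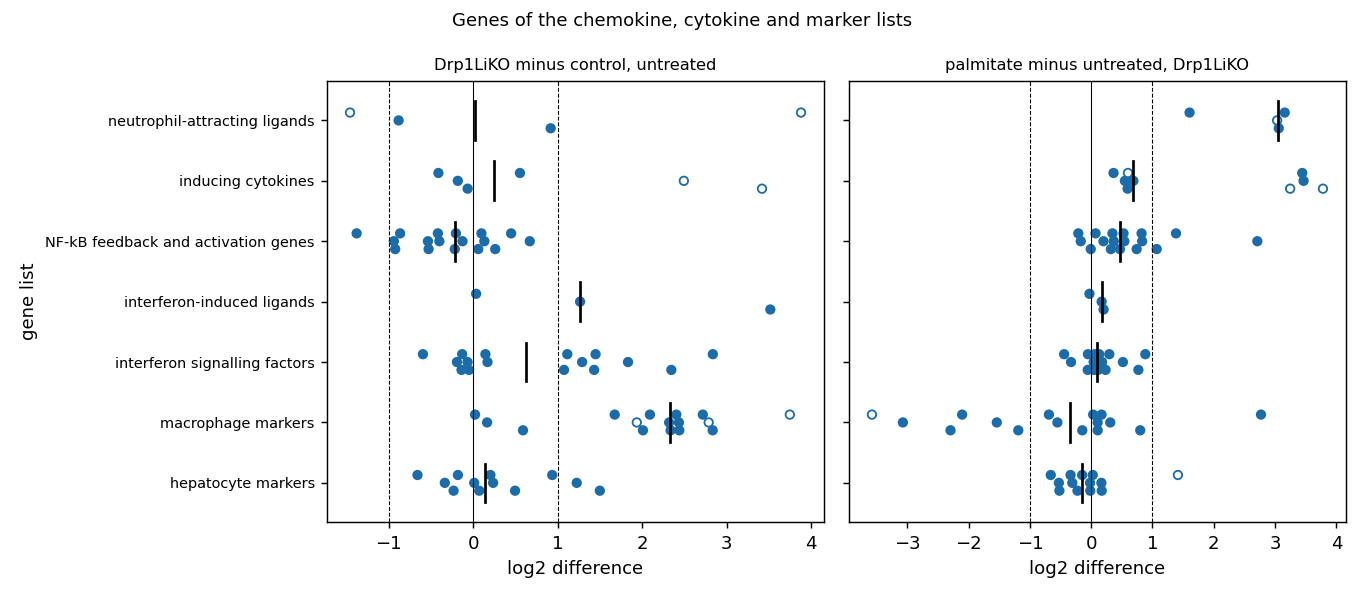
Each point is a gene of the named list, placed by its log2 difference between the genotypes untreated (left) and with palmitate in Drp1LiKO (right); hollow points were above background on 1 of the 2 arrays, bars are list medians and dashed lines 2-fold. The macrophage list has medians of 2.33 and −0.35 and the hepatocyte list 0.14 and −0.15.

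Other liver cells moved with the genotype, and in a bulk sample more cells of a type and more RNA per cell cannot be told apart. Macrophage markers, 16 of 19 measured, were higher in untreated Drp1LiKO for 13 and with palmitate for 12. Their summed level, in multiples of the array's 75th percentile, was 20.7 in control, 51.0 in Drp1LiKO, 26.5 in control with palmitate and 48.9 in Drp1LiKO with palmitate. Cd68 and Itgam had the highest levels in each sum. Ptprc, Itgam and Csf1r were not called for the genotype, at 0.16, 0.02 and 0.59 untreated and −0.02, −0.36 and 0.42 with palmitate. Timd4, Cd163 and Cx3cr1 were below background on all arrays, and the Kupffer cell gene Clec4f on both control arrays. Endothelial markers, 12 of 12 measured, were higher for 10 and 7, with sums of 1.89, 5.66, 1.74 and 3.90 in the same order. Tek was called lower in Drp1LiKO than in control with palmitate. Stellate cell markers, 10 of 12 measured, were higher for 8 and 6. Their sums of 45.2, 62.7, 46.4 and 59.3 mostly follow Acta2, which was not called, and say little of the list. With both arrays above background the counts were 10 and 7 for macrophage, 6 and 4 for endothelial and 3 and 2 for stellate markers. Of all genes tested 8.84% and 7.26% were higher, and of those above background on both arrays 4.46% and 3.09%. Macrophages and endothelial cells can make Cxcl9 and Cxcl10, and the part of these cells in the genotype differences was not tested.

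With palmitate 2 macrophage markers were higher and 4 lower in control, and 1 was higher and 6 lower in Drp1LiKO. With both arrays above background these were 2 and 1 in control, against 0.85% and 0.256% of such genes. In Drp1LiKO they were 1 and 5, against 1.75% and 0.667%. Of all genes tested 2.83% were higher and 2.87% lower in control, and 3.93% and 3.11% in Drp1LiKO. Hepatocyte markers, 13 of 14 measured, were higher in Drp1LiKO for 2 untreated (Tat, at −1.68 in control and −0.18 in Drp1LiKO, and Ass1, at 4.28 and 5.50) and 3 with palmitate, with 0 lower. Their sums, mostly of Serpina1c, Alb and Trf, lay between 1628 and 1691, and Cyp2e1 gave −0.66 and −0.72, not called. Neutrophil markers were measured for 4 of 10, with 1 and 2 called higher for the genotype and 1 and 1 for palmitate. With both arrays above background the numbers higher were 0 and 1 for the genotype and 0 and 0 for palmitate. Mpo, Camp, Ngp, Retnlg, Ltf and S100a9 were below background on every array. Elane and Csf3r, above background on all arrays, differed between the genotypes by −0.09 and 0.06 untreated and by 0.04 and 0.06 with palmitate. Ly6g passed the flag on both Drp1LiKO arrays alone, at least 4.84-fold above control untreated and 2.67-fold with palmitate. In Drp1LiKO the level of S100a8 with palmitate was at least 10.4-fold its untreated level. Lymphocyte markers were measured for 4 of 11, with 0 and 2 called higher for the genotype and 0 and 2 for palmitate. The 2 are Cd79a and Ms4a1, B cell genes that passed the flag in Drp1LiKO with palmitate alone, at least 3.11-fold and 1.38-fold above control with palmitate. With both arrays above background 0 lymphocyte markers were higher in any comparison. Cd3e and Cd4, above background on all arrays, differed between the genotypes by −0.09 and −0.37 untreated and by −0.21 each with palmitate. Cd3g, Cd8a and Nkg7 were below background on every array. Cholangiocyte markers were measured for 4 of 6, with 1 and 0 higher for the genotype and 1 and 0 for palmitate. With both arrays above background 0 of them were higher in any comparison.

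The genes whose pattern over the 4 arrays lay nearest to each class were found among 13689 named genes measured on all arrays, as the distance between values from which the gene's own mean was taken. For the mean of Cxcl1 and Cxcl3 these were 1700030M09Rik, Maats1 and 1200007C13Rik, at distances of 0.52, 0.63 and 0.66. For the mean of Cxcl9, Cxcl10 and Cxcl11 they were Stat2, Npn2 and Serpinb1a, at 0.13, 0.13 and 0.17. Stat2, part of the type I interferon transcription complex, was higher in Drp1LiKO by 1.45 and 1.02 and differed with palmitate by 0.56 and 0.13. With 4 arrays such a likeness is a description of these arrays only.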

How the data were processed

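RNA was labelled with 1 dye and hybridised to oligonucleotide arrays. The authors deposited scanner tables of intensity on a linear scale, background-subtracted and not scaled between arrays; their headers name Feature Extraction 10.7.1.1, the submitters' processing notes 9.5.1.1. A deposited table of processed intensity (56605 probes, column medians of 18.1, the same sorted values in each column and the scanner's rank order) served as an alternative. Labels and methods name different RNA kits.

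The processed signal was put on the log2 scale, less the 75th percentile of non-control spots, which lay at intensities of 485, 542, 424 and 468 (control, Drp1LiKO, control palmitate, Drp1LiKO palmitate). Outlier spots were left out, saturated ones kept (0 member spots were either), and repeat spots averaged. Of a gene's probes, the brightest represents it. Bounds set the bright array against the higher of the dim value and the lowest signal passing the flag on the dim array. The number of arrays limits the precision. Groups came from the labels, and differences of 2 arrays were called at 2-fold. Scripts (Python 3.11.15, pandas 2.3.3; limma 3.58.1 in R 4.3.3 for normexp, offset 50) were tested on simulated data. The members and gene lists were chosen with earlier results of these data known. Named genes are all members, CXC receptors, Dnm1l, up to 4 genes of each list with the largest differences measured on both arrays, and the 3 nearest patterns. List genes named as below background, for a small difference or for their role (Tnf, Irf1, Ifngr1, Ifngr2, Dpp4, Clec4f, Ptprc, Itgam, Csf1r, Alb, S100a8, Cd79a, Ms4a1) were chosen after their values were seen. Alternatives were normexp, quantile and median scaling, another percentile set, the deposited table, averaging all probes, and filters on dim probes.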

Additional observations from a re-analysis of the deposited data

Results flagged for a closer look

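Cxcl2 differed between the genotypes in opposite directions, by −1.46 on the log2 scale untreated and by 0.74 with palmitate, a change of 2.20. The untreated Drp1LiKO value was not well above background, and with that value raised to the floor the untreated difference was −0.30. With 1 array a group, this difference was not tested.

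Cxcl9 and Cxcl12 had palmitate responses of opposite sign in the genotypes. Cxcl9 gave 0.07 in control and −0.03 in Drp1LiKO, which differ by −0.10, and Cxcl12 gave −0.05 and 0.04, which differ by 0.0841. Both differences are below the scanner's error of 0.289 for a difference of 2 such values, and neither was tested.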

How the results depend on the processing

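No paired analysis was possible because each group has 1 array. Of 198 alternative values for the counts and medians, 186 kept their side of the 2-fold threshold (or a count within 1.5 times), 5 of them with the sign turned. Of 444 for single ligands 437 did, 4 with the sign turned (Cxcl11 for the genotype and Cxcl12 for palmitate in Drp1LiKO, all under the threshold). Under normexp the number of ligands lower in untreated Drp1LiKO was 0, the neutrophil-attracting median was 0.87 for the genotype with palmitate and 0.86 for palmitate in control, its excess over the interferon-induced median was 0.75 for palmitate in control, 1.63 for palmitate in Drp1LiKO and −0.28 for the genotype with palmitate, and the Cxcl5 difference of responses turned to 1.28. Normexp also took Cxcl14 untreated to 0.96, Cxcl3 with palmitate in control to 0.66 and the Cxcl2 difference of responses to 0.61, all under the threshold. Median scaling shifted the median of all genes by −0.18 for the genotype untreated and by −0.15 with palmitate, and called 2 ligands lower untreated, with Cxcl1 at −1.06. The number lower was 0 with a probe above background on both arrays and 0 when dim values were set to the floor; both settings took the excess of the neutrophil-attracting median to 0.97 for palmitate in control and to −0.96 for the genotype untreated, respectively. The median difference of responses of the neutrophil attractants, 0.99, was 1.05 under quantile normalization, 1.03 under median scaling and 1.04 in the deposited table, against 0.95 under normexp and 0.78 with values at the floor. Values of Cxcl2 and of Cxcl5 and Cxcl3 in untreated control cells rest on signals near background. Apart from the construction of each setting, the cause was not tested.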
